A study of Mus musculus with 4 samples.

Results

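Batf, Batf3, Irf4, Irf8, Bhlhe40, Prdm1 and Nfatc1 encode transcription factors that act downstream of the T cell receptor and shape effector differentiation. They were taken by gene symbol from the gene expression tables, 7 of 32285 listed genes, and were followed in 4 kinds of cell taken from tumors of B16, a melanoma line that is grafted into mice. The cells came from mice that all carried Vsir fl/fl, a loxP-flanked form of the gene for the immune checkpoint protein VISTA. The VISTA-KO mice also carried CD4-Cre, a recombinase under the Cd4 promoter that is active in developing T cells, and so removes the floxed gene from CD4+ and CD8+ T cells alike. The WT mice were littermates without Cre. Every tumor-bearing mouse received a peptide vaccine and anti-CTLA-4 antibody, so no untreated tumor was part of the comparison. Tumors were pooled per genotype, CD4+ and CD8+ T cells were sorted (the labels name only a CD8 stain for the sort), and each pool gave 1 gene expression library and 1 T cell receptor library.

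BATF and its relative BATF3 are AP-1 family proteins that bind DNA with JUN partners, and with IRF4 or IRF8 at composite sites. IRF4 is induced in proportion to the strength of receptor signaling, IRF8 serves effector CD8+ T cells and is indispensable for several dendritic lineages, and NFATc1 is carried into the nucleus by calcineurin once calcium rises. BHLHE40 is an E-box repressor that supports cytokine production and metabolic fitness of T cells in tissue, and BLIMP-1, the product of Prdm1, represses memory genes in effector and regulatory T cells.

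Promoter windows from 250 bases before to 50 bases after the start site were available from RefSeq (GRCm38.p6) for Batf, Batf3, Irf4, Irf8 and Prdm1. Those of Irf4 and Prdm1 are shown because these genes differed in opposite directions between the libraries. Capitals mark TATAAA in Irf4 and the AP-1 match TGANTCA in Prdm1.
Irf4, chr13:30748983-30749282, plus strand: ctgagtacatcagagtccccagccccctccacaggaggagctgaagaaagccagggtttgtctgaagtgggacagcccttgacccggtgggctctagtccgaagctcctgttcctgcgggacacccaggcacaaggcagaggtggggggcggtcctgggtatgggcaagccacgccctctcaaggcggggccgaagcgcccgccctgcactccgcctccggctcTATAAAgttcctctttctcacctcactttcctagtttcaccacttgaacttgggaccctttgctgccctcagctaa
Prdm1, chr10:44458699-44458998, minus strand: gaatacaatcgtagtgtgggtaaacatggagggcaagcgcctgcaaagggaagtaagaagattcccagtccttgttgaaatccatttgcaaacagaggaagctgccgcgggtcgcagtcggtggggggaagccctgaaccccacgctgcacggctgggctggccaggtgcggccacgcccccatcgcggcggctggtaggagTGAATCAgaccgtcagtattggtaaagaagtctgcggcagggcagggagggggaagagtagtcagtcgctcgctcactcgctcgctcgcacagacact
Both strands of each window were searched for AP-1 (TGANTCA), an E-box (CACGTG), an NFAT core (GGAAAA), a CRE (TGACGTCA), an IRF repeat (GAAANNGAA), an NF-kB site (GGGNNTTCC) and TATAAA, and no match of these overlapped another in the windows shown. The Prdm1 window held 1 AP-1 match, which began 48 bases before the start site, against 7.81% of 32851 mouse windows with at least 1. This window lies at the start site that the table holds for Prdm1, which is inside the annotated span of the gene and not at its upstream end. The Irf4 window held only TATAAA, 26 bases before the start site, a word found in 13.6% of windows, and it had no match to the other 6 motifs. The genes themselves lie on chromosome 12 from 85686720 to 85709087 (Batf), chromosome 1 from 191098414 to 191108943 (Batf3), chromosome 13 from 30749233 to 30766981 (Irf4), chromosome 8 from 120736358 to 120756694 (Irf8), chromosome 6 from 108660629 to 108666925 (Bhlhe40) and chromosome 10 from 44437174 to 44528558 (Prdm1).

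Cells with at least 600 genes and under 30% mitochondrial unique molecular identifiers (UMIs, which count molecules) numbered 10224 of 10337 barcodes in the WT-labelled library and 9946 of 10085 in the VISTA-KO-labelled library, with median depths of 4723 and 4670.5 UMIs. The libraries shared 144 cell barcodes. Vsir, the targeted gene, was at 112 CPM (UMIs of the gene per 1000000 UMIs) in CD8+ cells of the library labelled WT and at 112 CPM in the library labelled VISTA-KO, and at 114 and 118 CPM in regulatory cells. Gene-level UMIs do not separate exons and the deleted exons are not given in the sources used here, so the level of Vsir did not check the labels, and every direction below is between the WT-labelled and the VISTA-KO-labelled library.

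Cells with at least 2 Siglech UMIs, a marker of plasmacytoid dendritic cells, were set apart first and numbered 221 in the WT-labelled and 138 in the VISTA-KO-labelled library. The others were called CD8+ (Cd8a or Cd8b1 without Cd4, 5482 and 4301 cells), regulatory (Foxp3 with Cd4, 1491 and 1260 cells) or conventional CD4+ (Cd4 without Foxp3, 1661 and 2983 cells), and 13.4% and 12.7% of cells fell in no kind. In Siglech+ cells the 8 plasmacytoid markers, Siglech among them, summed to 9334 and 10596 CPM, against 288 to 349 CPM in the T cell kinds, and regulatory cells held Foxp3, their gate, at 495 and 614 CPM. Cells with RNA of more than 1 kind were frequent: 759 of 1491 regulatory cells in the WT-labelled and 367 of 1260 in the VISTA-KO-labelled library had a Cd8a or Cd8b1 UMI, with median depths of 13684 and 9150 UMIs against 5233.5 and 5137 UMIs in the regulatory cells without one. Median depth was 4819 and 5196 UMIs in CD8+ cells, 3922 and 4192 in conventional CD4+ cells, 8739 and 5908 in regulatory cells, and 9181 and 9485.5 in Siglech+ cells. Levels are CPM of the UMIs summed over the cells of a kind, and intervals are exact 95% intervals that cover counting error only. With 1 library per genotype the spread between mice was not measured, so no test was made.

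The limit for a difference was a log2 ratio of 0.32 in either direction, taken on CPM plus a pseudocount of 5. By this limit 2 of the 7 genes were higher in the VISTA-KO-labelled library in each kind of cell, and they were the same 2 throughout, Irf4 and Bhlhe40, though with gates at 2 UMIs instead of 1 (4 for Siglech) Irf4 in regulatory cells had a log2 ratio of 0.27 and only Bhlhe40 remained there. Of all genes with at least 20 CPM in 1 library, 2.57% were higher by that limit in CD8+ cells, 3.43% in conventional CD4+ cells, 6.28% in regulatory cells and 10.4% in Siglech+ cells. The members were chosen with earlier results of these data known, so their counts are not an independent comparison with these percentages. In CD8+ and conventional CD4+ cells Irf4 reached 20 CPM only in the VISTA-KO-labelled library, where it was higher. Prdm1 in Siglech+ cells reached it only in the WT-labelled library. The study that produced the data names both Irf4 and Bhlhe40 in its signature of genes higher in VISTA-KO CD8+ cells. That signature was drawn from these same data, so it is not independent support for the directions given here. Lower by the limit were 0 members in CD8+ cells (1.6% of all genes), 1 in conventional CD4+ cells, Prdm1 (4.15%), 1 in regulatory cells, Batf3 (5.45%), and 3 in Siglech+ cells, Batf, Batf3 and Prdm1 (12.1%). Batf3 never reached 20 CPM and is not among the genes behind these percentages. Its calls rest on 56 and 12 UMIs in regulatory cells and on 4 and 0 UMIs in Siglech+ cells, where the interval of the ratio ran from 0 to 2.71, and without it the lower counts were 0 in regulatory and 2 in Siglech+ cells.

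**Figure D1:**
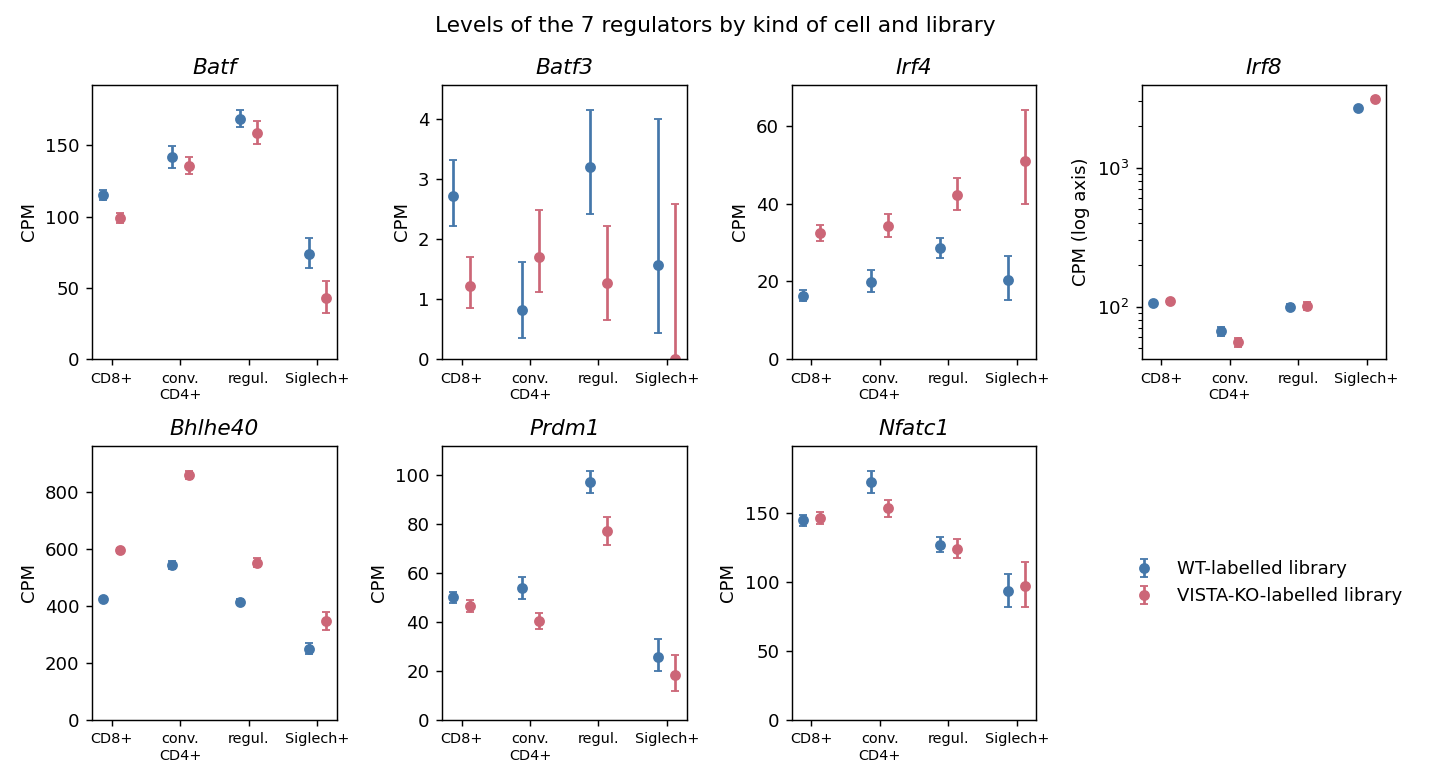
Level of each gene in CPM (vertical axes, from 0 except the log axis of Irf8) in the 4 kinds of cell, with the WT-labelled library in blue and the VISTA-KO-labelled library in red and bars for exact 95% counting intervals. Irf4 and Bhlhe40 lay higher in the VISTA-KO-labelled library in all 4 kinds, whereas Irf8 was at 2670 and 3107 CPM in Siglech+ cells and between 55.2 and 109 CPM elsewhere.

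Irf4 was at 16.3 CPM (15.0 to 17.7) in CD8+ cells of the WT-labelled library and at 32.4 CPM (30.4 to 34.6) in those of the VISTA-KO-labelled library, a ratio of 1.99 (1.79 to 2.21). In conventional CD4+ cells it was at 19.8 and 34.3 CPM, a ratio of 1.73 (1.46 to 2.05). In regulatory cells it was at 28.6 and 42.3 CPM, a ratio of 1.48 (1.29 to 1.69), or 1.24 with gates at 2 UMIs. In none of the 3 T cell kinds did the counting intervals of the libraries meet. The log2 ratio of Irf4 ranked 30 of 6065 genes in CD8+ cells, 49 of 6261 in conventional CD4+ cells and 182 of 6274 in regulatory cells. In CD8+ and conventional CD4+ cells Irf4 was among the ranked genes only through the VISTA-KO-labelled library, where it was high.

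Among T cells of the WT-labelled library the order of Irf4 levels was regulatory, conventional CD4+ and CD8+, with regulatory cells 1.75-fold (1.55 to 1.98) above CD8+ cells. In the VISTA-KO-labelled library regulatory cells were again highest, by 1.30-fold (1.16 to 1.47) over CD8+ cells, but conventional CD4+ and CD8+ cells no longer differed beyond counting error, with a ratio of 1.06 (0.949 to 1.18). Few cells held many copies of Irf4, 4 and 9 CD8+ cells with 5 or more UMIs. After each cell was thinned to 2000 UMIs, 2.75% (2.33 to 3.24) and 5.44% (4.77 to 6.18) of CD8+ cells held an Irf4 UMI, against 8.50% and 14.0% unthinned. In regulatory cells the thinned shares were 5.60% and 8.35%, while the unthinned shares were 22.8% and 21.8%, at the unequal median depths given above. No kind of cell here is known to lack Irf4, so free RNA could not be gauged for it.

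Irf4 was higher in the VISTA-KO-labelled library in every subgroup of T cells drawn by other genes, 5 of 5 in CD8+, 3 of 3 in conventional CD4+ and 4 of 4 in regulatory cells. The subgroups of a kind overlap in part and come from the same libraries, so these counts are not independent observations. Among the CD8+ subgroups its level was lowest in cells with Ccr7, a lymph node homing receptor, and no Pdcd1, at 10.2 and 28.2 CPM. Cells with Tcf7 and Pdcd1 had 12.0 and 32.8 CPM, with intervals that overlapped those of the lowest subgroup. The level was highest in cells with Havcr2, which encodes TIM-3, and Pdcd1, at 22.4 and 63.3 CPM, a ratio of 2.83 (2.03 to 4.01). The smallest ratio in CD8+ cells, 1.89 (1.54 to 2.33), was that of dividing cells with Mki67 or Top2a. In regulatory cells, those with Il1rl1 and no Itgae had 39.4 and 62.3 CPM, but with 24 and 42 cells the interval of the ratio, 0.713 to 3.57, included 1. The same held for dividing regulatory cells, 0.915 to 1.64, and dividing conventional CD4+ cells, 0.926 to 2.21.

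**Figure D2:**
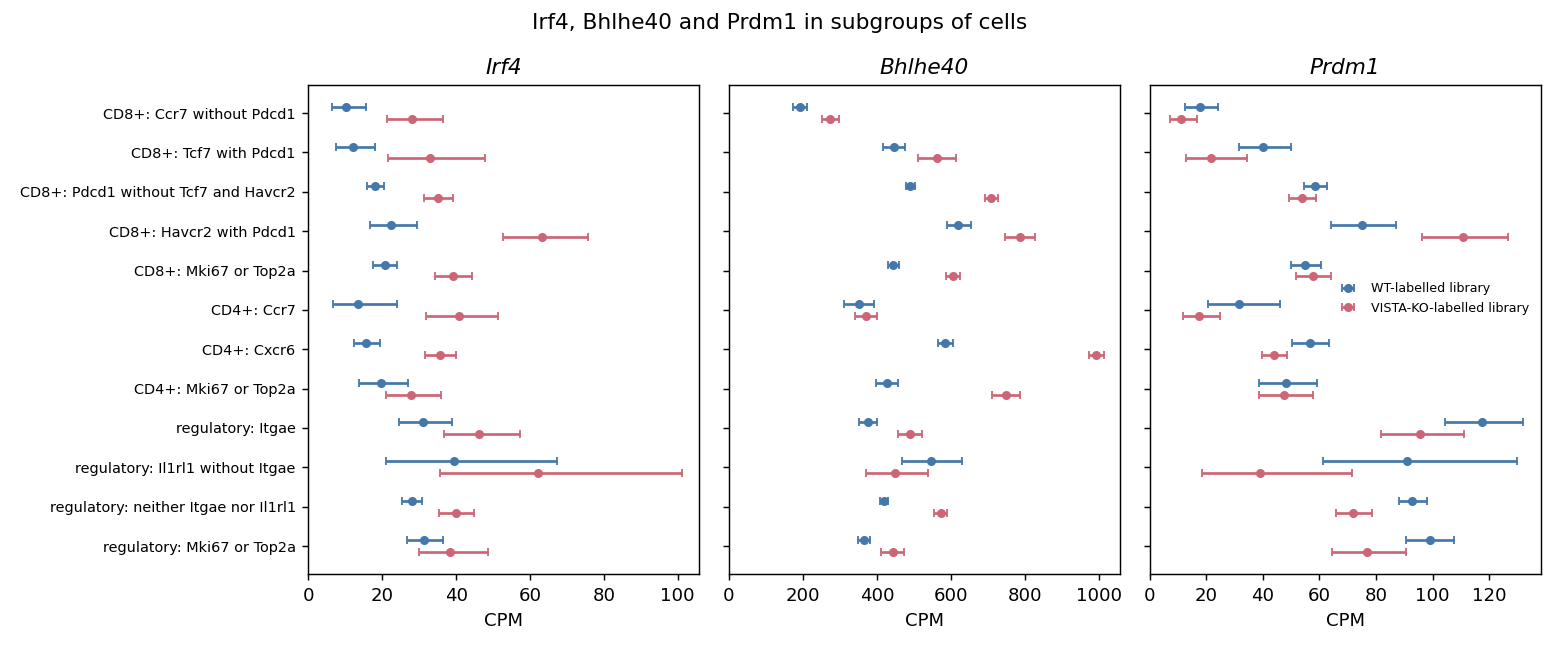
Levels of Irf4, Bhlhe40 and Prdm1 in CPM (horizontal axes) in 12 partly overlapping subgroups of T cells named by the genes that gate them, with the WT-labelled library in blue, the VISTA-KO-labelled library in red and bars for exact 95% counting intervals. Irf4 was higher in the VISTA-KO-labelled library in all 12 subgroups, Bhlhe40 in 11, and Prdm1 was lower in all regulatory subgroups but higher in CD8+ cells with Havcr2 and Pdcd1.

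Bhlhe40 was at 424 CPM (417 to 430) in CD8+ cells of the WT-labelled and 596 CPM (587 to 605) in those of the VISTA-KO-labelled library, a ratio of 1.41 (1.38 to 1.44). In conventional CD4+ cells, where it was highest in both libraries, the levels were 544 and 862 CPM, a ratio of 1.58 (1.53 to 1.63). In regulatory cells they were 415 and 552 CPM, a ratio of 1.33 (1.28 to 1.38). CD8+ and regulatory cells of the WT-labelled library did not differ beyond counting error, with a ratio of 1.02 (0.993 to 1.05). In thinned cells 44.0% and 55.1% of CD8+ cells and 48.8% and 59.5% of conventional CD4+ cells held a Bhlhe40 UMI. The thinned shares of regulatory cells, 47.4% (44.8 to 50.0) and 49.2% (46.4 to 52.1), had overlapping intervals. Cells with 5 or more unthinned UMIs made up 19.2% and 28.7% of CD8+ cells and 24.5% and 34.7% of conventional CD4+ cells. They made up 36.4% and 30.8% of regulatory cells, at the unequal median depths given above.

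Bhlhe40 ratios in the conventional CD4+ subgroups ran from 1.06 to 1.75, and the difference between subgroups was not tested. Cells with Cxcr6, a chemokine receptor of tissue-resident T cells, had 585 and 993 CPM, a ratio of 1.70 (1.63 to 1.77). Dividing cells had 426 and 748 CPM, a ratio of 1.75 (1.61 to 1.91). Cells with Ccr7 had 350 and 370 CPM, and the interval of their ratio, 0.918 to 1.22, included 1, although Irf4 in the same cells was at 13.3 and 40.7 CPM, a ratio of 3.05 (1.60 to 6.39). Among CD8+ cells the ratio lay between 1.26 and 1.45 in all 5 subgroups, and the level was lowest with Ccr7 and no Pdcd1, at 191 and 274 CPM, and highest with Havcr2 and Pdcd1, at 620 and 786 CPM.

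Batf, unlike Irf4, was not higher in the VISTA-KO-labelled library in any kind of cell. It was at 115 CPM (111 to 118) and 98.9 CPM (95.3 to 103) in CD8+ cells, a ratio of 0.861 (0.821 to 0.904). It was at 142 and 136 CPM in conventional CD4+ cells and at 169 and 159 CPM in regulatory cells. Both intervals of the ratio, 0.894 to 1.03 and 0.884 to 1.00, included 1. The regulatory value depended on cells with CD8 transcripts. Regulatory cells with no Cd8a or Cd8b1 UMI had Batf at 204 and 168 CPM, and the others at 154 and 145 CPM. Without cells that held Cd4 and CD8 transcripts or more than 1 beta chain, Batf was at 207 and 167 CPM. That ratio, 0.809, lay below the interval for all regulatory cells, whereas after thinning the ratio was 0.967. The order of levels, regulatory above conventional CD4+ above CD8+, was the same in both libraries, and each step exceeded counting error. Batf lay below a ratio of 1 in all 12 T cell subgroups, which overlap in part, from 0.771 in dividing CD8+ cells to 0.999 in dividing conventional CD4+ cells. The interval lay below 1 in 2 of 5 CD8+ subgroups, 0 of 3 conventional CD4+ and 0 of 4 regulatory subgroups, and the others included 1. When every CD8+ cell was given the same weight the log2 ratio was -0.03, against -0.21 for the summed UMIs, and CD8+ cells with 5 or more Batf UMIs were 3.05% and 1.46% of the kind.

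Batf3 was low in T cells, between 0.822 and 3.20 CPM over the 3 kinds, and 40 CD8+ cells of the WT-labelled and 16 of the VISTA-KO-labelled library held any UMI of it. In Siglech+ cells 4 UMIs lay in 1 cell of the WT-labelled library and none in the VISTA-KO-labelled library, so no fold was drawn (0 to 2.58 CPM in the second). CD8+ cells with Ccr7 and no Pdcd1 had it at 6.98 and 6.32 CPM from 15 and 13 UMIs. Single CD8+ cells held up to 12 and 11 Batf3 UMIs, and the number of cells behind these subgroup levels was not counted. Cells of no kind had 12.7 CPM (9.86 to 16.0) and 3.01 CPM (1.76 to 4.82), from 22 cells of the WT-labelled and 8 of the VISTA-KO-labelled library. Of these 22 and 8 cells, 17 and 3 held Flt3 UMIs, 5 and 3 held Xcr1 or Clec9a UMIs, and 5 and 2 held Cd3e UMIs. Cd3e is a T cell gene, and the gates themselves left no Cd8a, Cd8b1 or Cd4 UMI in cells of no kind. Flt3, Xcr1 and Clec9a are genes of conventional dendritic cells, the lineage for which BATF3 is best known. Clec9a was also at 58.2 and 124 CPM in Siglech+ cells, and the lineage of the 22 and 8 cells was not tested.

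Prdm1 was lower in the VISTA-KO-labelled library in the CD4+ lineages. Its level in conventional CD4+ cells was 53.6 CPM (49.1 to 58.5) and 40.2 CPM (37.1 to 43.5), a ratio of 0.749 (0.666 to 0.843), which ranked 6092 of 6261 genes. In regulatory cells, where it was highest in both libraries, it was at 97.0 and 77.0 CPM, a ratio of 0.794 (0.727 to 0.866) that stayed just inside the limit on the scale with the pseudocount. In CD8+ cells it was at 50.0 and 46.5 CPM, a ratio of 0.930 (0.866 to 0.999). Thinned shares of regulatory cells with a Prdm1 UMI were 17.8% (15.8 to 19.8) and 13.9% (12.0 to 16.0). In regulatory cells with no Cd8a or Cd8b1 UMI, whose depths were alike, Prdm1 was at 114 and 86.4 CPM.

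All 4 regulatory subgroups had Prdm1 intervals below 1, from a ratio of 0.428 (0.187 to 0.900) with Il1rl1 to 0.814 (0.670 to 0.986) with Itgae. CD8+ subgroups were split. Cells with Tcf7 and Pdcd1, the signature of progenitor exhausted cells, had 40.1 and 21.9 CPM, a ratio of 0.545 (0.307 to 0.920). Cells with Havcr2 and Pdcd1 had 75.0 and 111 CPM, a ratio of 1.48 (1.20 to 1.81). Over the 5 CD8+ subgroups Prdm1 ranged more widely in the VISTA-KO-labelled library, from 11.2 CPM with Ccr7 to 111 CPM with Havcr2, than in the WT-labelled library, from 17.7 to 75.0 CPM. The difference between subgroups was not tested.

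Nfatc1 was at 145 and 146 CPM in CD8+ cells, a ratio of 1.01 (0.972 to 1.05), and at 127 and 124 CPM in regulatory cells, a ratio of 0.976 (0.909 to 1.05). In conventional CD4+ cells it was at 172 and 153 CPM, a ratio of 0.891 (0.836 to 0.949). In both libraries it was lower in regulatory than in conventional CD4+ cells, by 0.737-fold (0.692 to 0.786) in the WT-labelled library, the opposite of the order of Batf and Prdm1. The lowest ratio, 0.632 (0.501 to 0.798), was in conventional CD4+ cells with Ccr7, at 160 and 101 CPM. All 5 CD8+ subgroups lay between 1.03 and 1.11, and the interval of each included 1.

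**Figure D3:**
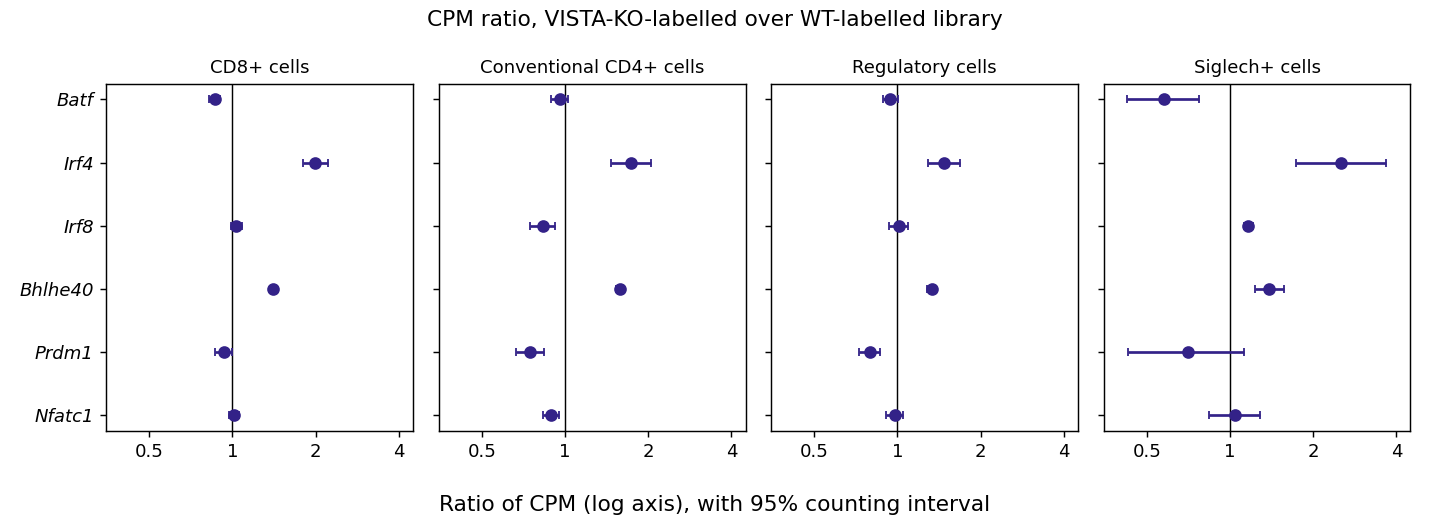
Ratio of CPM in the VISTA-KO-labelled over the WT-labelled library (log horizontal axis) for the 6 genes with at least 20 CPM, 1 panel for each kind of cell, with exact 95% counting intervals. Irf4 and Bhlhe40 lay above 1 in every panel, from 1.33 to 2.51, and Prdm1 lay below 1 in every panel, from 0.705 to 0.930. The interval of Prdm1 in Siglech+ cells, 0.430 to 1.13, included 1.

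Irf8 in CD8+ cells was at 105 CPM (102 to 109) in the WT-labelled and 109 CPM (105 to 113) in the VISTA-KO-labelled library, a ratio of 1.03 (0.984 to 1.08). In regulatory cells of the VISTA-KO-labelled library it was at 101 CPM, 1.01 times (0.935 to 1.10) the level in the other library. The UMIs were uneven over cells: the top 10% of CD8+ cells carried 80.7% and 73.0% of them, and one CD8+ cell held 64. CD8+ cells in which Irf8 was detected after thinning were deep, with a median of 9125 UMIs before thinning against 4813 for those in which it was not in the WT-labelled library, and 6688.5 against 5196 in the VISTA-KO-labelled library. After thinning, Irf8 was detected in 9.65% (8.86 to 10.5) and 11.9% (10.9 to 12.9) of CD8+ cells, and the level in thinned CD8+ cells was 66.8 and 81.4 CPM, a ratio of 1.22. Without each library's largest clonotype the levels were 120 and 111 CPM, a ratio of 0.926.

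CD8+ subgroups differed in the direction of Irf8. Cells with Ccr7 and no Pdcd1 had 81.9 and 56.8 CPM, a ratio of 0.694 (0.545 to 0.882). Cells with Pdcd1 but neither Tcf7 nor Havcr2, the most numerous subgroup, had 131 and 152 CPM, a ratio of 1.16 with an interval above 1. Cells with Havcr2 and Pdcd1 had the highest level of the 5 subgroups in both libraries, 199 and 197 CPM. The difference between subgroups was not tested.

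Irf8 in T cells was high relative to Ccr9, Klk1, Cox6a2 and Spib, which are only part of the list of 8 plasmacytoid markers. Siglech+ cells held 0.799 and 0.813 Irf8 UMIs for each UMI of Ccr9, Klk1, Cox6a2 and Spib, genes of plasmacytoid cells, whereas the T cell kinds held between 22.9 and 137, the last over only 7 such marker UMIs. Over the whole list the contrast was far smaller in CD8+ cells and turned in conventional CD4+ cells. The list also has Bst2, at 206 and 217 CPM in CD8+ cells. All 8 markers summed to 288 and 301 CPM in CD8+ and 343 and 313 CPM in conventional CD4+ cells, against 9334 and 10596 CPM in Siglech+ cells. Irf8 in conventional CD4+ cells was at 66.5 and 55.2 CPM, a ratio of 0.830 (0.748 to 0.921), but this value depended on cells that also had CD8 transcripts. Conventional CD4+ cells with a Cd8a or Cd8b1 UMI, 497 of 1661 and 587 of 2983, had 99.5 and 82.9 CPM. Those without had 31.4 and 42.1 CPM, so the direction turned. It also turned when cells with RNA of 2 kinds or 2 beta chains were left out (30.4 and 42.4 CPM), when cells were thinned (33.7 and 42.8 CPM) and when dividing cells were left out (40.9 and 44.6 CPM).

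In Siglech+ cells Irf8, which plasmacytoid cells are known to need, was by far at its highest, 2670 CPM (2607 to 2734) and 3107 CPM (3017 to 3200), a ratio of 1.16 (1.12 to 1.21). Without cells that held Cd4 and CD8 transcripts or 2 beta chains, Irf8 was at 3191 and 3414 CPM, a ratio of 1.07. With equal weight for each cell the ratio was 1.05, and after thinning it was 1.08. Siglech+ cells had 25.3-fold (24.4 to 26.4) the Irf8 level of CD8+ cells in the WT-labelled library and 28.6-fold (27.3 to 29.9) in the VISTA-KO-labelled library. Irf4 was at 20.3 CPM (15.2 to 26.6) and 51.0 CPM (40.0 to 64.2), a ratio of 2.51 (1.74 to 3.66) and rank 8 of 6405 genes. Bhlhe40 was at 250 and 347 CPM, a ratio of 1.39 (1.23 to 1.56). Irf4 UMIs numbered 52 and 73 in these cells, and 17.6% and 31.9% of the cells held one, or 2.27% (0.742 to 5.22) and 8.03% (4.08 to 13.9) after thinning. Plasmacytoid cells can express Cd4, and whether Vsir was deleted in them was not measured, with Vsir at 69.5 CPM (59.7 to 80.5) and 50.3 CPM (39.4 to 63.4).

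Batf in Siglech+ cells was at 73.8 and 42.6 CPM, a ratio of 0.578 (0.426 to 0.775), and Prdm1 at 25.8 and 18.2 CPM, a ratio whose interval, 0.430 to 1.13, included 1. T cell RNA in these cells differed the same way: 6 CD8+ T cell markers summed to 3377 and 2357 CPM and 5 regulatory markers to 514 and 299.9 CPM, with 0 of 6 and 0 of 5 higher in the VISTA-KO-labelled library. The 5 CD4+ T cell markers summed to 943 and 739 CPM, with 2 of 5 higher. Cells with Cd4 and CD8 transcripts or 2 beta chains were 117 of 221 and 60 of 138 Siglech+ cells. Without them Irf4 was at 16.7 and 43.3 CPM, Bhlhe40 at 184 and 356 CPM, and Batf at 52.1 and 29.3 CPM. Prdm1 was then at 4.17 and 9.78 CPM, below 20 CPM in both libraries. The part of T cell RNA in these values was not tested.

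Melanoma transcripts also differed between libraries, at 10.6 and 203 CPM summed over 5 markers in CD8+ cells, 231 and 16.1 CPM in conventional CD4+ cells and 5.82 and 197 CPM in regulatory cells. They lay in few cells: 3 CD8+ cells of the VISTA-KO-labelled library held 5624 of its 5668 melanoma marker UMIs in that kind. With cells of 5 or more such UMIs left out, Irf4 in CD8+ cells was at 16.3 and 32.7 CPM and Bhlhe40 at 424 and 596 CPM. Macrophage markers summed to 142 and 74.9 CPM in regulatory cells and to 121 and 122 CPM in CD8+ cells.

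Receptor sequences gave a further view of CD8+ cells, since cells of 1 clonotype share the same alpha and beta chains. Clonotypes of 10 or more cells held 47.4% of CD8+ cells in the WT-labelled and 26.0% in the VISTA-KO-labelled library, and clonotypes of 1 cell held 16.4% and 30.2%. Irf4 was at 11.3 and 26.2 CPM in cells with a clonotype of their own, a ratio of 2.32 (1.72 to 3.17). It was at 22.0 and 28.6 CPM in clonotypes of 2 to 9 cells, a ratio of 1.30 (0.999 to 1.71). It was at 15.3 and 35.4 CPM in clonotypes of 10 or more cells, a ratio of 2.31 (1.94 to 2.75), and at 18.0 and 41.2 CPM in CD8+ cells with no clonotype. The ratio was smallest in clonotypes of 2 to 9 cells, and the difference between classes was not tested.

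Bhlhe40 was higher in the VISTA-KO-labelled library in all these classes, with ratios of 1.72 (1.62 to 1.83) for clonotypes of 1 cell, 1.33 (1.26 to 1.41) for 2 to 9 cells and 1.50 (1.45 to 1.56) for 10 or more. Some members had class ratios that the sum over CD8+ cells did not show. Nfatc1 in clonotypes of 1 cell was at 94.9 and 135 CPM, a ratio of 1.42 (1.27 to 1.58), and near 1 in the larger classes, 0.954 and 1.01. Irf8 in clonotypes of 10 or more cells was at 105 and 139 CPM, a ratio of 1.32 (1.22 to 1.42), but in CD8+ cells with no clonotype it was at 123 and 98.8 CPM, a ratio of 0.803 (0.726 to 0.886). Prdm1 was at 35.4 and 49.0 CPM in clonotypes of 2 to 9 cells, a ratio of 1.39 (1.13 to 1.71), and at 57.6 and 65.1 CPM in those of 10 or more, a ratio of 1.13 (1.01 to 1.26), against 0.930 over all CD8+ cells. Batf lay between 0.913 and 0.932 in the 3 classes that had a clonotype, with every interval including 1.

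The class of 10 or more cells rested in part on the largest clonotype of each library. Without it, a setting chosen after the values were seen, in 1565 and 826 cells, Irf8 was at 147 and 159 CPM, a ratio of 1.09 (1.00 to 1.18), and the WT-labelled value lay above the 139 CPM of the whole VISTA-KO-labelled class. Irf4 was at 17.4 and 30.5 CPM, a ratio of 1.75 (1.42 to 2.16), and Bhlhe40 kept a ratio of 1.50 (1.44 to 1.56). The interval for Prdm1, 0.938 to 1.21, then included 1, and that for Batf, 0.752 to 0.907, no longer did.

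Clonotypes of at least 20 cells numbered 24 in the WT-labelled and 12 in the VISTA-KO-labelled library. Irf4 ranged from 4.66 to 29.8 CPM over the first and from 10.5 to 65.8 CPM over the second, with medians of 16.9 and 28.3 CPM. Of the 12 clonotypes of the VISTA-KO-labelled library, 10 lay above the median and 5 above the highest of the other library, though their intervals were wide. Bhlhe40 ranged from 309 to 1151 CPM and from 397 to 1057 CPM, with medians of 459 and 649 CPM. The beta chain junctions of 4 clonotypes are shown in lower case because levels in these clonotypes are given next.
WT-labelled clonotype 1, TRBV12-2: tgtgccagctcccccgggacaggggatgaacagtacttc
WT-labelled clonotype 3, TRBV20: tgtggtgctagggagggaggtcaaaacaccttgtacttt
VISTA-KO-labelled clonotype 1, TRBV13-1: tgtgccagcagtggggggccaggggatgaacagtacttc
VISTA-KO-labelled clonotype 12, TRBV12-1: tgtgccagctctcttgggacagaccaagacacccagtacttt
The largest WT-labelled clonotype, 1034 cells or 24.9% of CD8+ cells with a clonotype, had Irf4 at 10.8 CPM (8.12 to 14.1) and Irf8 at 15.0 CPM. The third, with 79 cells, had Irf8 at 311 CPM. The largest VISTA-KO-labelled clonotype, 291 cells, had Irf4 at 48.1 CPM (39.5 to 58.0) and Irf8 at 86.5 CPM, and clonotype 12, with 20 cells, had the highest Irf4 level of all, 65.8 CPM (24.2 to 143). Clonotypes of 1 library share its preparation and are not replicates of a genotype.

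Irf8 varied widely between clonotypes of the same library, from 0 to 320 CPM in the WT-labelled and from 32.5 to 326 CPM in the VISTA-KO-labelled library. The 7 clonotypes with Irf8 above 200 CPM had Tcf7, the gene of the memory and progenitor factor TCF-1, at 0 to 28.2 CPM and Pdcd1 at 616 to 970 CPM. The 6 clonotypes with Irf8 below 20 CPM had Tcf7 at 88.8 to 354 CPM and Pdcd1 at 16.5 to 752 CPM, a range that overlaps that of the others. Over the 36 clonotypes the Spearman correlation of Irf8 with Tcf7 was -0.841 and with Pdcd1 0.588, as a description of points that share 2 libraries. The same correlation with Tcf7 was -0.577 for Batf, -0.485 for Prdm1, -0.469 for Bhlhe40, -0.208 for Irf4 and -0.191 for Nfatc1. The limits of 200 and 20 CPM were chosen after the values were seen. Clonotypes above 200 CPM of Irf8 also had more UMIs per cell than those below 20 CPM. WT-labelled clonotype 3 had 1021232 UMIs in 79 cells, and WT-labelled clonotype 1 had 4996616 UMIs in 1034 cells. The part of cell depth in the contrast and in the correlations was not tested.

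**Figure D4:**
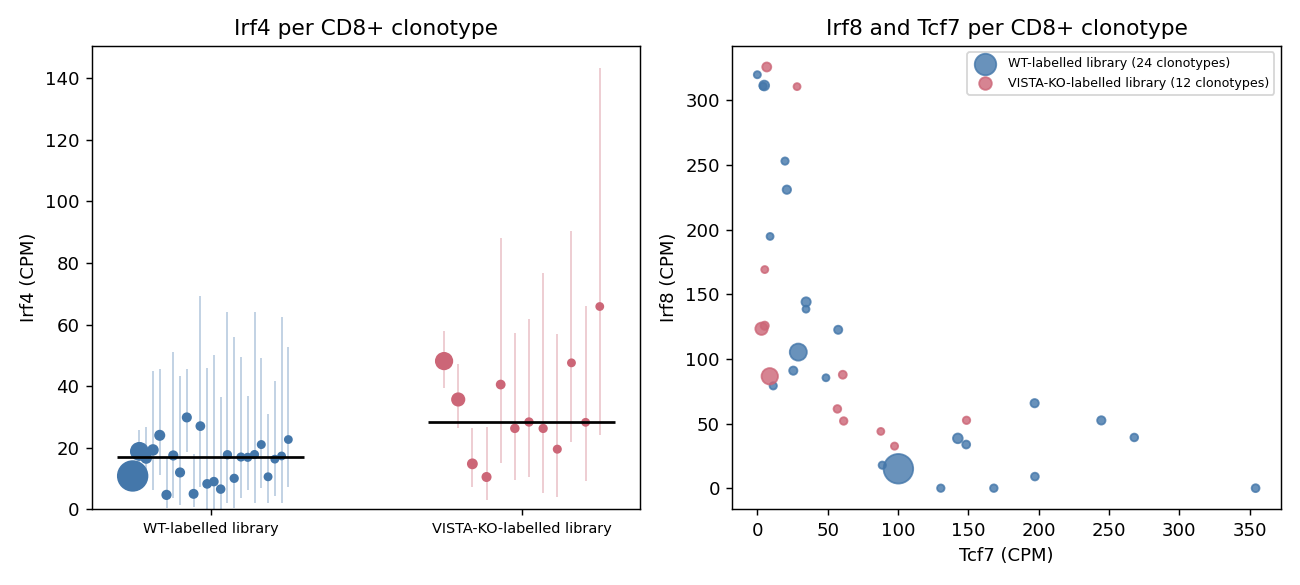
Left, Irf4 level in CPM of each CD8+ clonotype with at least 20 cells (point area grows with cells, bars are exact 95% counting intervals, black lines are medians of 16.9 and 28.3 CPM). Right, Irf8 against Tcf7 in CPM for the same clonotypes, where the 7 clonotypes above 200 CPM of Irf8 all have Tcf7 at 28.2 CPM or less.

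Pairs of members were also read in single cells. In thinned CD8+ cells with a Bhlhe40 UMI, 3.46% (2.75 to 4.29) and 6.61% (5.63 to 7.72) held Irf4, against 2.20% and 4.01% of those without. For Irf8 the shares were 11.8% and 13.9% with Bhlhe40 against 7.94% and 9.47% without. Irf4 with Prdm1 differed between the libraries: 2.68% (1.39 to 4.63) of Prdm1+ against 2.76% (2.31 to 3.27) of other CD8+ cells held Irf4 in the WT-labelled library, and 10.4% (7.25 to 14.3) against 5.03% (4.36 to 5.77) in the VISTA-KO-labelled library. Batf was held by 23.8% (17.1 to 31.6) of Irf4+ against 16.8% (15.8 to 17.9) of other CD8+ cells in the WT-labelled and by 13.4% (9.22 to 18.6) against 15.9% (14.8 to 17.1) in the VISTA-KO-labelled library. For both pairs the CD4+ kinds differed from each other. In regulatory cells Batf was held by 30.9% of Irf4+ against 25.1% of other cells in the WT-labelled library. In the VISTA-KO-labelled library it was 22.8% against 24.5%. Irf4 was held by 1.99% of Prdm1+ against 3.56% of other conventional CD4+ cells, and by 6.45% against 5.10% in the VISTA-KO-labelled library. These had the directions of CD8+ cells, with overlapping intervals. The other CD4+ kind went the other way for each pair. Batf was held by 17.3% (8.23 to 30.3) of Irf4+ against 21.4% of other conventional CD4+ cells in the WT-labelled and by 27.2% (20.2 to 35.2) against 21.2% in the VISTA-KO-labelled library, so intervals overlapped. Irf4 was held by 5.84% of Prdm1+ against 5.55% of other regulatory cells in the WT-labelled and by 4.76% (2.08 to 9.17) against 8.93% (7.27 to 10.8) in the VISTA-KO-labelled library. Irf4 and Irf8 were each held by a higher share of cells with Bhlhe40 than without in all 3 T cell kinds of both libraries, in regulatory cells for Irf4 by 6.57% against 4.73% and 9.41% against 7.33%. These are descriptions of cells from 1 library each.

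Related genes from lists written for this purpose were read beside the members. The list counts stand beside the shares of all genes of at least 20 CPM past the limit. In CD8+, conventional CD4+, regulatory and Siglech+ cells 2.57%, 3.43%, 6.28% and 10.4% were higher, and 1.6%, 4.15%, 5.45% and 12.1% were lower. Of 8 further BATF and IRF family genes, 2 of 5 that reached 20 CPM were higher by the limit in CD8+ cells, 1 of 6 in conventional CD4+, 3 of 6 in regulatory and 3 of 6 in Siglech+ cells, and none was lower. Irf1, an interferon-induced regulator, was the highest in every kind, at 234 and 307 CPM in CD8+, 264 and 381 CPM in conventional CD4+ and 235 and 389 CPM in regulatory cells. Irf9, a subunit of the interferon-activated complex ISGF3, was at 54.4 and 69.5 CPM in CD8+ cells. None of the 4 genes at that level in the other NFAT, BHLHE and PRDM family list passed the limit in T cells, and Nfatc2, Nfatc3 and Nfat5 were lower in Siglech+ cells.

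Of 11 AP-1 partners, 3 of 7 at that level were higher in CD8+ cells, 4 of 7 in conventional CD4+ and 5 of 7 in regulatory cells, with median log2 ratios of 0.32, 0.37 and 0.68 against -0.03, -0.04 and -0.01 for all genes of at least 20 CPM. Junb, a dimer partner of BATF, was at 1394 and 2007 CPM in CD8+ cells, at 2413 and 4451 CPM in conventional CD4+ cells and at 1557 and 3626 CPM in regulatory cells. Jun was lower in CD8+ cells, at 348 and 274 CPM, and did not pass the limit elsewhere. Fos, like Nr4a1 an immediate-early gene that also responds to tissue digestion, was at 339 and 450 CPM in CD8+ cells. In Siglech+ cells 3 of 8 were higher, led by Bach1 at 29.3 and 47.5 CPM, with a median of 0.25.

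The calcineurin and receptor signal list was led by Nr4a1 in every kind, at 127 and 371 CPM in CD8+, 188 and 794 CPM in conventional CD4+, 197 and 802 CPM in regulatory and 98.8 and 275 CPM in Siglech+ cells. Nr4a3 was at 31.9 and 78.8 CPM in CD8+ cells, and Tox, a gene of the exhausted state, was at 149 and 90.1 CPM in conventional CD4+ cells. Of 11 genes at that level 3, 2, 4 and 3 were higher and 0, 2, 1 and 4 lower in the CD8+, conventional CD4+, regulatory and Siglech+ cells, with medians between 0.01 and 0.06. The calcineurin subunits Ppp3ca, Ppp3cb, Ppp3cc and Ppp3r1 stayed within the limit in the T cell kinds. In CD8+ cells Nr4a1, Nr4a3, Fos, Junb and Irf4 were higher in the same library. Jun, also an immediate-early gene, was lower there, and the part of sample handling in this was not tested.

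Effector genes linked to BATF and IRF4 were split. In CD8+ cells 5 of 17 were higher, among them Gzmb, the granzyme B gene, at 759 and 1389 CPM and Ifng at 209 and 333 CPM, and 3 were lower, led by Tnfrsf4 at 138 and 73.5 CPM. Conventional CD4+ cells had 3 of 17 higher, led by Icos at 322 and 452 CPM, and 7 were lower, among them the inhibitory receptor genes Lag3 at 116 and 65.0 CPM and Pdcd1 at 432 and 276 CPM. In regulatory cells 8 of 19 were higher, led by Il1rl1 at 10.3 and 25.9 CPM, and 3 were lower, led by Pdcd1 at 374 and 218 CPM. Among the higher genes were Il10 at 15.1 and 26.3 CPM and Ctla4 at 799 and 1051 CPM. Il1rl1 and Il10 reached 20 CPM only in the VISTA-KO-labelled library, so they joined the 19 genes through the library where they were high. In Siglech+ cells 1 of 17, Lag3, was higher, at 326 and 413 CPM, and 10 were lower, among them Ccr8 at 52.3 and 6.29 CPM. Ccr8 reached 20 CPM there only in the WT-labelled library. The CD8+ T cell markers in these cells, at 3377 and 2357 CPM, and the regulatory markers, at 514 and 299.9 CPM, were lower too, and their part in this was not tested. Median log2 ratios were 0.16, -0.20, 0.21 and -0.74.

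The list of stem and memory genes that BLIMP-1 is known to repress or oppose had median log2 ratios of 0.28 in CD8+, 0.32 in conventional CD4+ and 0.42 in regulatory cells, with 4 of 11, 5 of 11 and 5 of 9 genes higher and none lower. Klf2, a factor of T cell quiescence and recirculation, was at 633 and 1140 CPM in conventional CD4+ cells and at 306 and 698 CPM in regulatory cells. Tcf7 was at 134 and 133 CPM in CD8+ cells. In Siglech+ cells 2 of 8 genes were higher and 4 lower, with a median of -0.15.

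Over the 12 T cell subgroups in both libraries, 24 points that overlap in cells and share libraries, the genes whose levels, as log2 of CPM plus 5, were most like each member were picked among 7720 genes by Pearson's r. For Irf4 they were Nr4a3 (0.778), Ino80c (0.773) and Ppp1r3b (0.771). For Bhlhe40 they were Itgb2 (0.867), Tmsb4x (0.847) and Osgin1 (0.846), and for Irf8 they were Mt1 (0.927), Pdia6 (0.922) and Psma4 (0.916). For Prdm1 they were Nucb1 (0.957), Ctsb (0.940) and Pvrig (0.939), for Batf they were Map6 (0.905), Asl (0.897) and Ssu72 (0.895), and for Nfatc1 they were Arhgef6 (0.907), Rasa1 (0.865) and Wbp1 (0.861). Among the members the highest r was that of Batf with Prdm1, 0.637, and Irf4 with Bhlhe40 had 0.433.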

How the data were processed

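Each genotype gave 1 library for gene expression and 1 for receptors. Reads went through Cell Ranger 5.0.0 with a GRCm38 reference, and the counts the authors deposited are whole UMIs, not normalized. The labels also name Seurat 4, whose output was not used here. The deposited receptor table gives a UMI count for each contig. The labels describe a 3′ kit and the methods a V(D)J profiling kit.

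UMIs were summed per kind of cell and library. Ratios of CPM have exact intervals from the split of UMIs, and log2 ratios used a pseudocount of 5 CPM. Cells were thinned to 2000 UMIs for shares, which left out 290 and 186 CD8+ cells. Cells shared a clonotype when V gene and junction matched in both their best-covered alpha and beta chains. No doublet caller was run. Cells with Cd4 and CD8 transcripts or 2 beta chains were kept, with an alternative without them. They are called doublets below but were not shown to be such. In the WT-labelled library they were 818 of 1491 regulatory and 117 of 221 Siglech+ cells. The ratio step was tested on simulated data. Python 3.11.15, numpy 2.4.6, scipy 1.17.1, pandas 2.3.3 and matplotlib 3.10.9 were used.

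The members, lists and subgroups were chosen with earlier results of these data known. Named genes were the members, genes of the lists (above all the highest and lowest ratio of a list in a kind of cell), markers, and the 3 genes most like each member. Alternatives changed the pseudocount, cell filters, gates, doublets, the largest clonotype, the scale, cell weights and thinning, and 4 were added after seeing the data (dividing cells, plasmacytoid marker UMIs, melanoma marker UMIs, and the largest clonotype among those of 10 or more cells left out). One gene of the list of stem and memory genes is counted there but not reported by itself here.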

Additional observations from a re-analysis of the deposited data

Results flagged for a closer look

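Irf8 had ratios of opposite direction in 2 kinds of cell: 0.830 in conventional CD4+ cells and 1.16 in Siglech+ cells, VISTA-KO-labelled over WT-labelled library. Each kind had 1 sample per library, so the difference between kinds was not tested. The conventional CD4+ value turned to 1.39 without cells that held Cd4 and CD8 transcripts or 2 beta chains. Without such cells the Siglech+ value was 1.07.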

How the results depend on the processing

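Of 420 recomputed log2 ratios, 380 stayed within the counting interval of the value given, 37 left it, and 3 that were past the limit changed sign. The 380 include values that could not leave the interval. The setting without Foxp3+ cells changed only the CD8+ kind. Those with Siglech+ cells kept or the largest clonotypes left out did not change the Siglech+ values. Batf3 in Siglech+ cells had an interval without limits. The 3 that changed sign were all Prdm1 in Siglech+ cells. It came to 0.69 without doublets, 0.10 with equal weight for each cell and 0.15 after thinning. The levels behind these were 4.17 and 9.78, 13.7 and 15.0, and 15.9 and 18.2 CPM, all below 20 CPM. The cause was not tested. Irf4 and Bhlhe40 stayed above 0 in all 4 kinds under every alternative run, Irf4 in CD8+ cells between 0.53 (pseudocount of 20 CPM) and 0.95 (pseudocount of 1 CPM). The count of lower members became 1 in CD8+ cells with a pseudocount of 1 CPM, without Foxp3+ cells and without the largest clonotypes. This was Batf3 each time, which never reached 20 CPM. In conventional CD4+ cells with Siglech+ cells kept, Prdm1, at 49.7 and 39.0 CPM, no longer passed the limit, and the lower member was Irf8 instead. The count there became 0 with a pseudocount of 20 CPM and 2 with stricter gates. In regulatory cells it became 0 with a pseudocount of 20 CPM, with members of at least 20 CPM, with equal cell weights and after thinning, and 2 with a pseudocount of 1 CPM, at least 1000 genes, Siglech+ cells kept, doublets left out or dividing cells left out. In Siglech+ cells it became 1 with a pseudocount of 20 CPM, without doublets, with equal cell weights and after thinning. The count of higher members became 1 in regulatory cells with stricter gates, where the log2 ratio of Irf4 was 0.27. It became 3 in CD8+ cells with equal cell weights (Irf8, 0.35). In conventional CD4+ cells it became 3 with a pseudocount of 1 CPM (Batf3, 0.57) or without doublets (Irf8, 0.42). In Siglech+ cells it became 3 without doublets through Prdm1, which was below 20 CPM there in both libraries. Irf8 in conventional CD4+ cells ranged from -0.92 with Siglech+ cells kept to 0.42 without doublets, and Irf8 in regulatory cells from -0.33 with those cells kept to 0.26 after thinning. Low counts limit Batf3, and cell numbers of 221 and 138 limit the Siglech+ cells. No paired analysis was possible because each genotype has 1 library.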
